A study of Mus musculus with 4 samples.

Results

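The genes described here are the fibroblast growth factor (FGF) receptors Fgfr1, Fgfr2 and Fgfr3, the ligand Fgf15, and 5 genes known as targets or feedback inhibitors of FGF signalling, Spry1, Spry2, Etv4, Etv5 and Dusp6. They were chosen by gene symbol, and all 9 were found among the 43346 features counted. In GRCm38 (GENCODE M21), Fgfr1 lies at chr8:25513654-25575718, Fgfr3 at chr5:33721674-33737068 and Fgf15 at chr7:144896531-144900953, all on the plus strand. The GENCODE model of Fgfr2, chr7:130162451-133123350 on the minus strand, overlaps 69 other genes. The 250 bases before the RefSeq start of Fgfr2 lie inside that model, at chr7:130266809-130267058, so the overlap depends on the gene model. FGF ligands bind receptor tyrosine kinases at the cell surface and signal through Ras and ERK. The pathway turns on the ETS factors Etv4 and Etv5, and it is damped by Sprouty proteins such as Spry1 and Spry2 and by the ERK phosphatase Dusp6. In the embryonic forebrain it is known for patterning the front of the cortex and for keeping radial glia, the dividing stem cells of the ventricular zone, in a progenitor state.

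The data were single-cell RNA counts from wild-type C57BL/6 mouse embryos at E12.5. One droplet library (10x Genomics) was made for each of 4 regions, the cortex (CTX) and the 3 ganglionic eminences, called lateral (LGE), medial (MGE) and caudal (CGE), and each library pooled tissue of several embryos. The labels describe a sort for live cells, whereas the methods of the study say that wild-type cells were not sorted, and the 2 accounts could not be reconciled. With 1 library per region, no difference between regions could be tested, and intervals given for single libraries cover counting error only.

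The libraries held 4301 to 6953 barcodes and 31451467 to 49794765 UMIs (unique molecular identifiers, 1 for each captured RNA molecule). Filters left 3432 CTX, 4552 LGE, 4610 MGE and 3136 CGE cells, with medians of 6901.5 to 8109.5 UMIs, and pairs of libraries shared 4 to 15 barcodes. High Nestin (high-Nes) and high Dcx cells were those in which the natural log of 1 plus the UMIs per 10000 exceeded 1.5 for that gene and not for the other. Nestin marks radial glia and Dcx marks young neurons. There were 843, 582, 512 and 164 high-Nes cells and 775, 1976, 2080 and 2216 high-Dcx cells in CTX, LGE, MGE and CGE. All 9 radial glia markers were found in each class, at a summed 4687 to 11966 UMIs per 1000000 (CPM) in high-Nes cells and 713 to 1517 CPM in high-Dcx cells. The 5 young neuron markers went the other way, at 223 to 581 CPM and 5234 to 6792 CPM. These sums include the gate genes Nes and Dcx themselves, so part of the contrast follows from the gates.

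The upstream sequences of 3 feedback genes are shown because ETS factors, to which Etv4 and Etv5 belong, bind sites built around the letters GGAA. Each is the 250 bases before the start of the gene on its own strand (RefSeq, GRCm38.p6), and capitals mark GGAA or its reverse complement TTCC. Spry1 is at chr3:37639697-37639946 on the plus strand, Spry2 at chr14:105896820-105897069 on the minus strand and Dusp6 at chr10:99262981-99263230 on the plus strand.
Spry1: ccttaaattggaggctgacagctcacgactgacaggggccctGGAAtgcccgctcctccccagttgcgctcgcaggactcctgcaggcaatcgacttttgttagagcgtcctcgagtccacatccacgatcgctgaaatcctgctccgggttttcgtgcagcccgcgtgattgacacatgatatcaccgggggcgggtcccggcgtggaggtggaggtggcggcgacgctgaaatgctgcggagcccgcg
Spry2: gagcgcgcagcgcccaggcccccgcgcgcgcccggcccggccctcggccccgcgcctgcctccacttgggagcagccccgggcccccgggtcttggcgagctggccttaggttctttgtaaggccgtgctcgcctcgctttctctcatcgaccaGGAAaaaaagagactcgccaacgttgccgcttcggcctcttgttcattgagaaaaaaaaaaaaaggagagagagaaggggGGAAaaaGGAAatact
Dusp6: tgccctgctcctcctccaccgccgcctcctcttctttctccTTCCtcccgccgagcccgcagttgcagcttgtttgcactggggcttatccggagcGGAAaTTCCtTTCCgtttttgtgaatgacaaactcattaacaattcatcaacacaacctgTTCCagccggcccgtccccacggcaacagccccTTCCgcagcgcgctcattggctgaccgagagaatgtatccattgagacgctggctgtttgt
The core was found 1 time before Spry1, 3 times before Spry2 and 6 times before Dusp6. Of all 32851 promoters in the RefSeq table, 93.4%, 54.7% and 8.69% held at least as many, so that only the Dusp6 count was uncommon. The longer form CCGGAA, on either strand, was in none of 8 promoters of 6 member genes and in 12% of all promoters. A match of letters is a description and not evidence of binding.

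Each receptor stood higher in high-Nes than in high-Dcx cells of every library. In high-Nes cells Fgfr1 was at 84.7, 72.1, 64.0 and 80.4 CPM in the CTX, LGE, MGE and CGE libraries. In high-Dcx cells it was at 33.0, 26.9, 31.5 and 24.5 CPM in the same order. The lowest high-Nes library thus stood above the highest high-Dcx library. Fgfr2 was at 47.2, 94.1, 66.4 and 84.3 CPM in high-Nes cells of CTX, LGE, MGE and CGE, against 2.01, 8.93, 13.3 and 6.73 CPM in high-Dcx cells. Fgfr3 was at 115, 36.5, 52.9 and 137 CPM in high-Nes cells, against 8.98, 2.08, 1.86 and 4.68 CPM in high-Dcx cells. Neither gene's high-Nes and high-Dcx libraries overlapped. How many of all genes separate in this way was not counted.

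The test took the 4 libraries as blocks and compared sums over cells (edgeR quasi-likelihood, Benjamini-Hochberg adjusted over 12320 genes). Here 27.6% of genes were called higher and 28.0% lower in high-Nes cells, at an adjusted p below 0.05 and an absolute log2 fold change of at least 0.25. All 3 receptors were called higher. The log2 difference was 4.28 ± 0.249 (SE) for Fgfr3 (edgeR adjusted p = 0.0002), 3.27 ± 0.334 for Fgfr2 (edgeR adjusted p = 0.000814) and 1.29 ± 0.129 for Fgfr1 (edgeR adjusted p = 0.000774). These are folds of 19.4, 9.62 and 2.44. Fgfr1 was therefore the receptor that the young neurons kept most of.

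None of the 4 feedback genes that passed the filter on low counts was called. Spry1 had a log2 difference of 0.63 ± 0.510 (edgeR adjusted p = 0.330) and Dusp6 one of 0.67 ± 0.674 (edgeR adjusted p = 0.429). Spry2 had -0.12 ± 0.553 (edgeR adjusted p = 0.877) and Etv5 0.07 ± 0.434 (edgeR adjusted p = 0.904). Fgf15 and Etv4 had too few UMIs for the test; with no filter on low counts both were called higher, at 2.57 ± 0.510 (edgeR adjusted p = 0.00474) and 4.60 ± 0.848 (edgeR adjusted p = 0.00318). Without the CTX library, Dusp6 was called higher at 1.59 ± 0.402 (edgeR adjusted p = 0.0174), and without the cells with non-neural markers it no longer passed the filter. The plot of levels by library shows the contrast between receptors, where the classes stood apart in each library, and feedback genes, where they mostly did not.

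**Figure D1:**
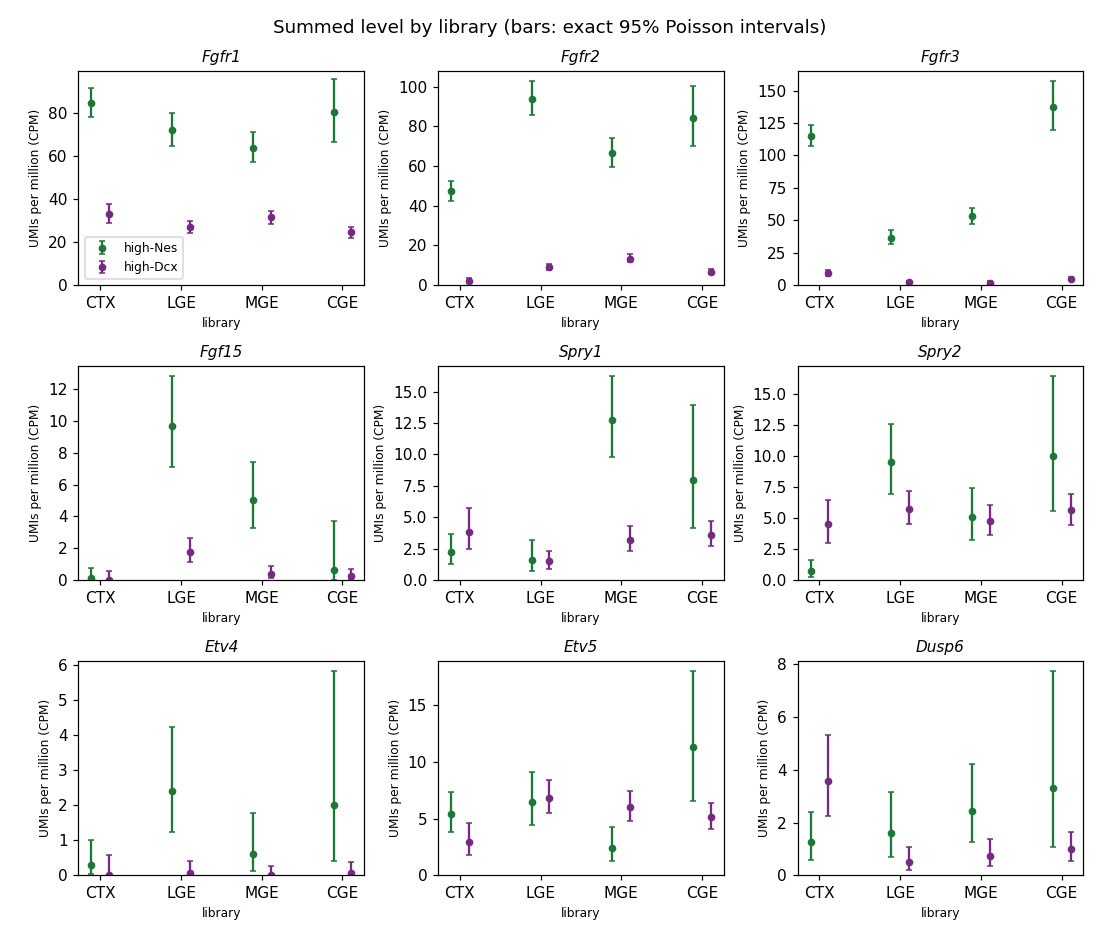
Level in CPM (vertical axis, linear, scaled for each gene) in high-Nes and high-Dcx cells of each library (horizontal axis), with exact 95% Poisson intervals. The high-Nes points of Fgfr1, Fgfr2 and Fgfr3 lie above all their high-Dcx points, while Spry1, Spry2, Etv5 and Dusp6 change order between libraries.

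The receptors had different orders of regions. Fgfr1 was the most even, with CTX high-Nes cells at 1.32 times MGE (95% interval 1.15 to 1.52). Fgfr2 ran from LGE down to CTX, a ratio of 1.99 (1.73 to 2.30), and its 2 highest libraries, LGE and CGE, did not differ beyond counting error (1.12, 0.915 to 1.37). Fgfr3 ran from CGE to LGE, a ratio of 3.77 (3.07 to 4.63), with CTX next after CGE. Among the 3 members with a mean of at least 20 CPM, Fgfr3 was the 1 whose highest high-Nes library was at least 2 times the lowest (pseudocount 1 CPM), and 10.1% of 6674 genes were that far apart. At a gate of 2.0 and in thinned cells Fgfr2 was as well (2.21 and 2.24 times), where 13.6% and 14.2% of genes were. In high-Dcx cells, where 16.0% of 6619 genes were, Fgfr1 was the 1 member at that level and was not.

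The ligand Fgf15, a secreted FGF of the ventral forebrain, was found mostly in the LGE and MGE libraries. High-Nes cells held 48 UMIs in LGE (9.67 CPM, 7.13 to 12.8) and 25 in MGE (5.05 CPM, 3.27 to 7.45), but 1 each in CTX and CGE. High-Dcx cells of the CTX, LGE, MGE and CGE libraries held 0, 24, 5 and 4 UMIs. In LGE the high-Nes level was 5.42 times the high-Dcx level (3.25 to 9.25) and in MGE 13.6 times (5.11 to 45.4).

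Among the inhibitors, Spry1 was highest in MGE high-Nes cells, with 63 UMIs (12.7 CPM), then CGE (7.97), CTX (2.26) and LGE (1.61). MGE stood 7.89 times above LGE (3.77 to 19.1) and not clearly above CGE (1.60, 0.853 to 3.25). Spry2 had another order, at 9.96 CPM in CGE, 9.47 in LGE and 5.05 in MGE. It was low in CTX, where 843 high-Nes cells held 5 UMIs (0.707 CPM), and CGE stood 14.1 times above CTX (4.87 to 49.6). In high-Dcx cells Spry2 was at 4.49 to 5.73 CPM in all 4 libraries, and LGE did not differ from CTX beyond counting error (1.28, 0.823 to 2.03).

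Of the ETS factors, Etv5 was at 5.37, 6.45, 2.42 and 11.3 CPM in high-Nes cells of CTX, LGE, MGE and CGE, with CGE 4.66 times above MGE (2.10 to 10.7). Etv4 was scarce, with 2, 12, 3 and 3 UMIs in high-Nes cells and 0, 1, 0 and 1 in high-Dcx cells. In LGE this gave a ratio of 32.5 with an interval of 4.81 to 1389, so only its direction is firm. Dusp6 was at 1.27, 1.61, 2.42 and 3.32 CPM in high-Nes cells, from 5 to 12 UMIs a library.

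Much of the Dusp6 signal lay outside the neural cells. The 119 kept cells with at least 3 markers of endothelium, of pericytes or mesenchyme, or of microglia or macrophages made up 0.395% to 1.52% of a library. They held 52.1%, 74.3%, 42.6% and 39.6% of the Dusp6 UMIs in the CTX, LGE, MGE and CGE libraries. Summed over libraries, Dusp6 was at 121 CPM (93.4 to 154) in 42 microglia- or macrophage-like cells, 113 CPM (74.8 to 163) in 25 endothelial-like cells and 53.1 CPM (33.3 to 80.3) in 53 pericyte- or mesenchyme-like cells. One cell can belong to more than 1 of these groups.

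Without these cells, Dusp6 in high-Nes cells went from 1.27 to 0.569 CPM (CTX), 1.61 to 0 (LGE), 2.42 to 1.02 (MGE) and 3.32 to 2.01 CPM (CGE). All 8 Dusp6 UMIs of the LGE high-Nes class thus came from cells with non-neural markers. In CTX high-Dcx cells, which held no such cell, Dusp6 stayed at 3.56 CPM. Spry1 also had a non-neural part, 7.33% to 19.3% of its UMIs, with 79.6 CPM (54.8 to 112) in pericyte- or mesenchyme-like cells. Its MGE high-Nes level moved little when these cells were removed, from 12.7 to 12.02 CPM. Etv5 was at 41.0 CPM (25.7 to 62.0) in microglia- or macrophage-like cells, and 17.5% of its CTX UMIs were non-neural. The CTX, LGE, MGE and CGE libraries held 12, 16, 8 and 8 Etv4 UMIs in kept cells, of which 6, 4, 1 and 0 were non-neural. Its LGE high-Nes level went from 2.42 to 2.04 CPM without these cells. The receptors differed among themselves. Fgfr2 and Fgfr3 had no UMI in endothelial-like cells, whereas Fgfr1 was at 72.4 CPM (48.8 to 103) in pericyte- or mesenchyme-like and 40.2 CPM (19.3 to 74.0) in endothelial-like cells, the former within its range over high-Nes libraries. At most 1.11% of the UMIs of any receptor in a library were non-neural.

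**Figure D2:**
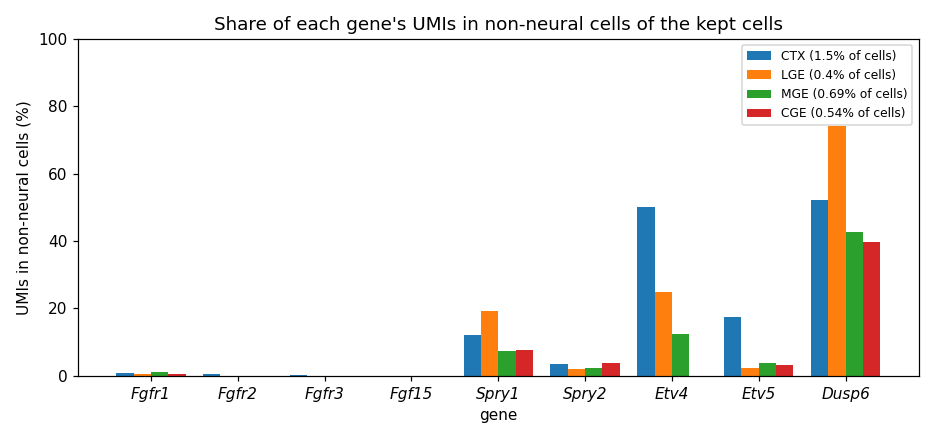
Percent of each gene's UMIs (vertical axis) that lay in non-neural cells, by gene (horizontal axis) and library (bar colour, with the percent of kept cells that were non-neural). The Dusp6 bars reach 39.6% to 74.3%, while those of Fgfr1, Fgfr2, Fgfr3 and Fgf15 stay at or under 1.11%.

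The next comparison followed the genes outward from the ventricle, through cells classed by expression as ventricular zone (VZ), subventricular zone (SVZ) and mantle zone (MZ), in LGE, MGE and CGE. CTX was left out because the study used the eminences for these classes, and it had 15 SVZ cells. All 3 receptors fell at the first step. Fgfr3 went from 34.7, 52.8 and 132 CPM in VZ cells of LGE, MGE and CGE to 3.08, 3.33 and 1.36 CPM in SVZ cells. This was a log2 change of -4.08 ± 0.319 (edgeR adjusted p = 1.8e-05). Fgfr2 changed by -2.17 ± 0.248 (edgeR adjusted p = 0.000151) and Fgfr1 by -1.03 ± 0.159 (edgeR adjusted p = 0.000877). Of 11658 genes, 18.3% were called lower and 17.6% higher at this step.

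Etv5 and Spry1 fell with them. Etv5 had 32, 12 and 17 UMIs in VZ cells of LGE, MGE and CGE but 2, 1 and 0 in SVZ cells, a log2 change of -3.34 ± 0.944 (edgeR adjusted p = 0.0199). Spry1 had 9, 63 and 13 UMIs in VZ cells and 2, 4 and 0 in SVZ cells, a change of -2.38 ± 0.596 (edgeR adjusted p = 0.0115). Both calls rest on few UMIs. Etv5 lost its call without the LGE library (-3.49, edgeR adjusted p = 0.136), in thinned cells (-2.87, edgeR adjusted p = 0.0576) and with no upper gene limit (-2.94, edgeR adjusted p = 0.0658). Spry1 lost it without MGE (-2.39, edgeR adjusted p = 0.113), without CGE (-2.07, edgeR adjusted p = 0.0537) and without the library block (-2.68, edgeR adjusted p = 0.0559). Spry2 was at -0.56 ± 0.399 and was not called (edgeR adjusted p = 0.310).

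From SVZ to MZ the receptors and Etv5 parted. Etv5 came back to 15.8, 10.3 and 5.71 CPM in MZ cells of the LGE, MGE and CGE libraries, a log2 rise of 4.30 ± 0.850 (edgeR adjusted p = 0.00235). Fgfr2 fell further, by 1.16 ± 0.298 on the log2 scale (edgeR adjusted p = 0.00980), a call that was lost without CGE (-0.99, edgeR adjusted p = 0.0544) and in thinned cells (-0.96, edgeR adjusted p = 0.187). Fgfr1 (-0.36 ± 0.168), Fgfr3 (-0.98 ± 0.496), Spry1 (1.31 ± 0.657) and Spry2 (0.22 ± 0.408) were not called, although without CGE Fgfr3 was (-1.37 ± 0.435, edgeR adjusted p = 0.0496). At this step 23.9% of genes were called higher and 21.5% lower. The Etv5 of the mantle zone was thus found where Fgfr2 and Fgfr3 were at their lowest or near it. Fgfr1 was still at 24.3, 31.4 and 23.2 CPM in MZ cells of LGE, MGE and CGE. In CGE the Etv5 rise is least sure, because the 0 UMIs of SVZ cells left an upper limit of 5.03 CPM against 5.71 CPM in MZ cells.

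**Figure D3:**
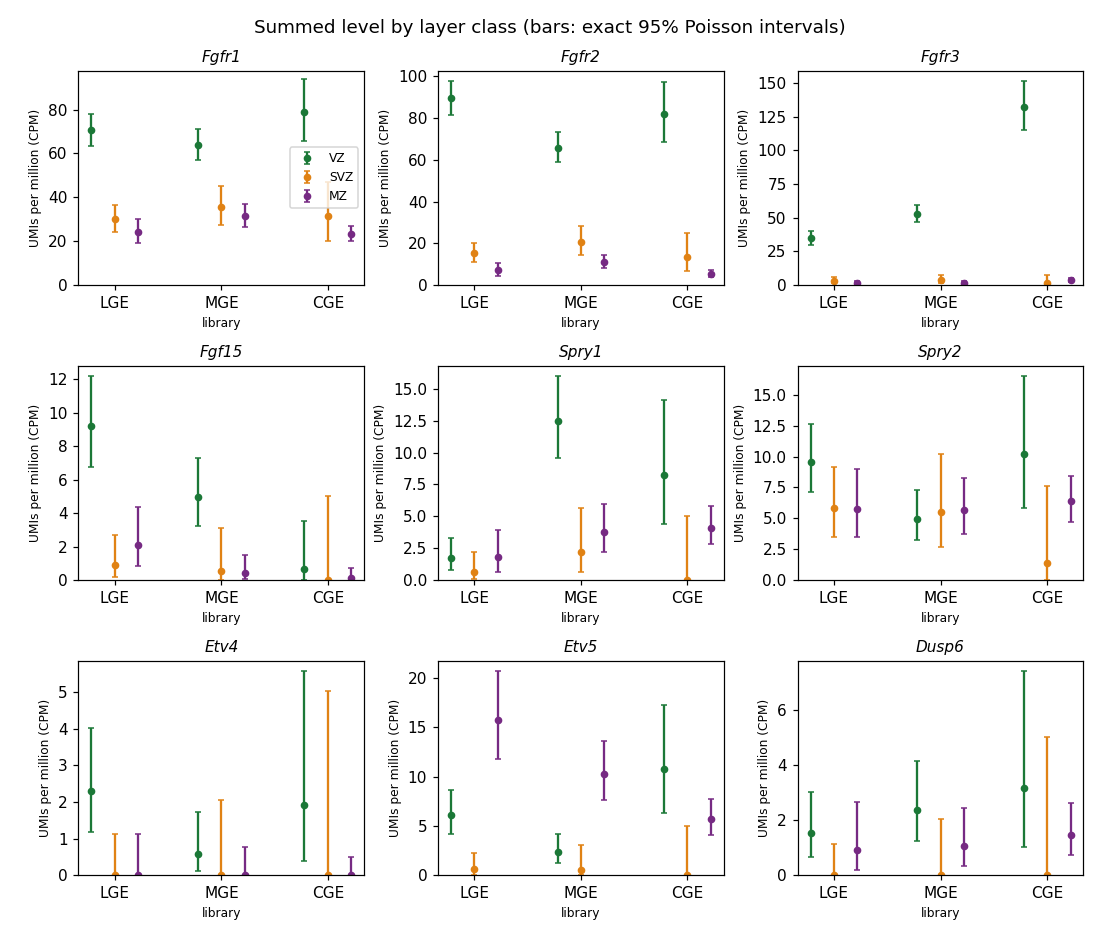
Level in CPM (vertical axis, linear, scaled for each gene) in VZ, SVZ and MZ cells of LGE, MGE and CGE (horizontal axis), with exact 95% Poisson intervals. The receptors drop from VZ to SVZ, whereas Etv5 drops and is back at 5.71 to 15.8 CPM in MZ cells.

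Other genes of the pathway were counted by list, against 27.6% higher and 28.0% lower over all genes. Of 8 further receptors and co-receptors tested of 11 listed, 7 were called higher in high-Nes cells and 0 lower, with a median log2 difference of 2.03 against -0.017 over all genes. They were the heparan sulfate proteoglycans Sdc1, Sdc2, Sdc4, Gpc1, Gpc3 and Gpc4, which help FGFs bind, and the receptor-like Fgfrl1. Sdc4 had the highest value (4.28 ± 0.454). Of 18 adaptors and kinases, 3 were higher and 7 lower (median -0.19), among them Map2k1 at 0.72 ± 0.138 and the adaptor Frs3 at -2.15 ± 0.270. Of 7 further feedback inhibitors tested, 1 was higher, Spred1 (1.11 ± 0.0938), and 1 lower, the phosphatase Dusp4 (-4.75 ± 0.353), with a median of -0.05. Of 6 ERK target genes, 1 was higher (Ier2, 0.78 ± 0.265) and 1 lower (Myc, -1.61 ± 0.460). With 1 gene called each way in lists of 7 and 6, these counts are too small to set against the shares over all genes. None of 12 further FGF ligands passed the filter on low counts. Of 11 genes known to respond to cell dissociation, 5 were tested, with 2 higher and 2 lower (median -0.29). Their summed level was 828 to 1048 CPM in high-Nes and 662 to 925 CPM in high-Dcx cells, and their part in the members' levels was not tested.

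Between the layers, most of these receptors and co-receptors fell on leaving the ventricular zone. From VZ to SVZ, 5 of 7 tested were called lower (Sdc2, Sdc4, Gpc1, Gpc4 and Fgfrl1) and 0 higher, against 18.3% lower and 17.6% higher over all genes, with a median of -1.03 against -0.011. Sdc4 had the largest fall of these 5 (-3.59 ± 0.671). From SVZ to MZ, 3 of 7 were lower (Sdc1, Gpc4 and Fgfrl1) and 1 higher, the syndecan Sdc3 (2.24 ± 0.412), against 21.5% lower and 23.9% higher over all genes, with a median of -0.42 against 0.044. Of the 7 further feedback inhibitors tested, Spred1 was lower at the first step (-0.71 ± 0.173), and Dusp4 (4.19 ± 0.361) and Spred3 (1.79 ± 0.276) were higher at the second.

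Within the high-Nes cells, those with high Mki67, a marker of cycling cells, were compared with the rest. Fgfr2 was higher in cycling cells by 0.51 ± 0.103 on the log2 scale (edgeR adjusted p = 0.00134), a fold of 1.43, and it was the 1 member called. Over 9839 genes, 7.86% were called higher and 7.45% lower. Fgfr1 (0.12 ± 0.0949) and Fgfr3 (0.15 ± 0.113) were not called. The Fgfr2 call was lost at a gate of 2.0 (0.40 ± 0.173, edgeR adjusted p = 0.184) and without the library block (0.53 ± 0.247, edgeR adjusted p = 0.388). Spry1 was below the filter, and without CTX it was called lower in cycling cells (-1.43 ± 0.399, edgeR adjusted p = 0.0209). Dusp6, also below it, had 3, 0, 0 and 2 UMIs in cycling cells of CTX, LGE, MGE and CGE and 6, 8, 12 and 3 in the rest, of which 5, 8, 7 and 2 lay in cells with non-neural markers.

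To ask whether feedback genes follow the receptors from cell to cell, cells above the Nestin gate were thinned to 3000 UMIs each and grouped by their summed receptor UMIs. The 5 feedback genes together were at 20.7 CPM (16.2 to 25.9) in cells with 0 receptor UMIs, 14.6 CPM (9.69 to 21.1) with 1 and 18.7 CPM (11.3 to 29.3) with 2 or more. The ratio of the last to the first was 0.907 (0.517 to 1.52). These are sums over the 4 libraries without a block, so the interval covers counting error only and does not bound the change within a library. Cells with 0 receptor UMIs made up 48.1%, 60.3%, 62.8% and 44.0% in CTX, LGE, MGE and CGE. The groups thus held the regions in different parts, and the effect of that was not tested. No rise with receptor UMIs was detectable in these sums at this depth. The groups also differed in Dcx, at 28.4 to 173 CPM over the libraries with 0 receptor UMIs and 2.15 to 25.0 CPM with 2 or more. The dissociation gene Jun rose by 0.29 ± 0.0512 on the log2 scale per step (edgeR adjusted p = 3.21e-05). Cells with non-neural markers, which held much of the Dusp6, were kept in these groups. The part of Dcx, Jun or these cells in the comparison was not tested. No feedback gene had enough UMIs for the test over genes, in which 1.63% of 6929 were called higher and 2.25% lower per step.

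The libraries did not move together in this. In LGE the sum went from 16.6 to 21.4 to 37.5 CPM, and in MGE from 31.7 to 14.6 to 10.8 CPM, from 2 to 32 UMIs a point. With cells at their own depth, where deeper cells fall in the upper groups more often, the ratio was 1.01 (0.775 to 1.32). There Etv5 had a ratio of 3.04 (1.55 to 6.63) and Spry1 one of 0.586 (0.362 to 0.954). These ratios are again from sums over the 4 libraries without a block. MGE had the highest Spry1 and the lowest Etv5 in high-Nes cells, and the part of the library mix in the ratios was not tested.

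**Figure D4:**
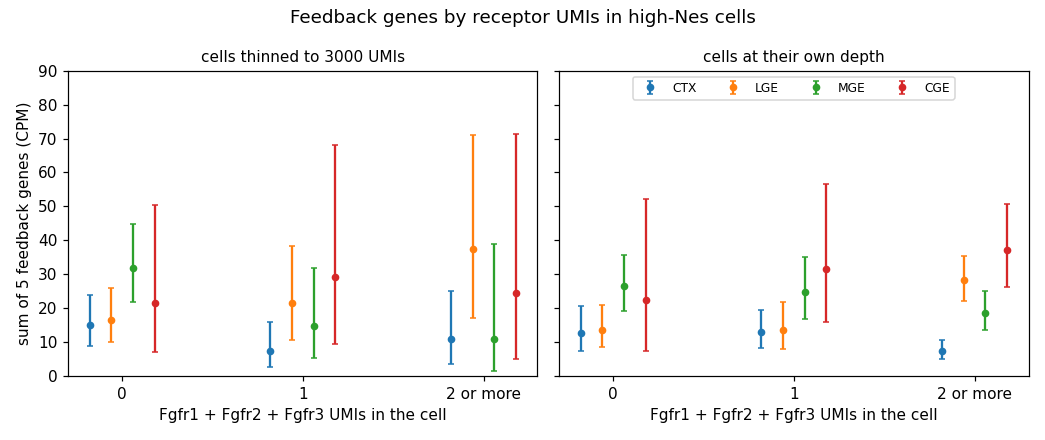
Sum of Spry1, Spry2, Etv4, Etv5 and Dusp6 in CPM (vertical axis) by the receptor UMIs of the cell (horizontal axis), in each library, with cells thinned to 3000 UMIs or at their own depth. Bars are exact 95% Poisson intervals, and the 4 libraries show no shared direction.

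The receptors themselves were seen in the same cell at 0.972 to 1.72 times the product of their shares. In thinned CTX cells, 62 of 829 held both Fgfr1 and Fgfr3, a ratio of 1.09 (0.838 to 1.40). The 1 pair whose interval left out 1 was Fgfr1 with Fgfr3 in MGE (1.72, 1.09 to 2.58), out of 12 pairs. Fgfr2 with Fgfr3 was at 1.53 in LGE (0.891 to 2.45) and 1.55 in MGE (0.916 to 2.44). By UMIs, Fgfr3 was higher in cells with Fgfr2 in LGE (2.09, 1.16 to 3.68) and MGE (2.19, 1.32 to 3.54), but not beyond counting error in CTX (1.10, 0.768 to 1.54) or CGE (1.23, 0.661 to 2.19). In the test over all 4 libraries no receptor was called higher in thinned cells with another, except that without CTX Fgfr3 was higher in cells with Fgfr2 (log2 0.83 ± 0.238, edgeR adjusted p = 0.0234). Over all genes, 0.103%, 0.958% and 0.464% were called higher in the splits on Fgfr1, Fgfr2 and Fgfr3. At their own depth, Fgfr2 was higher in cells with Fgfr1 (log2 0.45 ± 0.0876, edgeR adjusted p = 0.00320), as was Fgfr3 (0.42 ± 0.101, edgeR adjusted p = 0.0192), and the depth of the cells moves with that comparison. In these splits on Fgfr1, Fgfr2 and Fgfr3 at own depth, 1.06%, 2.31% and 1.32% of genes were called higher.

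Cells of the cortex were split on Sp8, known as a rostral gene, and on Nr2f1, known as a caudal one. The 2 genes did not oppose each other beyond counting error here, with Nr2f1 at 0.902 times (0.711 to 1.13) in cells with Sp8 and Sp8 at 0.714 times (0.423 to 1.22) in cells with Nr2f1, so the splits are not shown to follow the front-to-back axis. Thinned cells with an Nr2f1 UMI had 1.93 times the Fgfr2 (1.22 to 3.17) and 1.35 times the Fgfr3 (1.05 to 1.76) of cells without. Fgfr1 had a ratio of 1.13 (0.846 to 1.53). Spry1 was lower with Nr2f1, at 2 against 6 UMIs (0.174, 0.0171 to 0.971). For cells split on Sp8, 61 with and 768 without, every receptor's interval held 1, as in Fgfr2 (0.583, 0.186 to 1.40). Cortical and other cells high in Eomes, the marker of intermediate progenitors, kept Fgfr3 at 31.5 CPM (27.4 to 36.1) and Fgfr1 at 25.6 CPM, but held 4 Etv5 UMIs over 827 cells (0.598 CPM).

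Across 15 library and class profiles, the gene most like Fgfr3 of 5626 compared was Hes1, a Notch target of radial glia (Pearson r = 0.984), followed by Col2a1 (0.969) and Ttyh1 (0.967). For Fgfr2 it was Eif2s2 (0.971). The highest likeness was lower for the other 4 members compared, with Fgf15 closest to the axon guidance ligand Ntn1 (0.822), Spry1 closest to Olig1 (0.871) and Etv5 to Adprh (0.907). Dusp6 came closest to Itm2a (0.842) and Cldn5 (0.819), the latter an endothelial tight junction gene. The feedback sum correlated with Fgfr1, Fgfr2 and Fgfr3 at 0.30, 0.30 and 0.36. Single feedback genes ranged from Etv4 (0.62, 0.70 and 0.50), the scarcest, to Spry2 (0.05, 0.23 and 0.00) and Etv5 (0.06, 0.02 and 0.18). The profiles share libraries and depth, so these are descriptions without a test.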

How the data were processed

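The deposited files were matrices of UMI counts per gene and barcode, made by the authors with Cell Ranger (3.0.2 in the matrix headers, 3.0.0 in the submitters' processing notes) on mm10 with no normalization. The annotation release is not given in the sources used here, and the study names default Cell Ranger parameters but no strand setting. How reads of overlapping genes (Fgf15 with 2 antisense genes on the other strand, for example) were assigned was not examined. Cells with 1500 to 4500 genes, at most 5.0% mitochondrial and 1.0% Hbb UMIs were kept, and the barcodes most like simulated doublets (0.8% per 1000 barcodes) were removed. CPM are UMIs per 1000000 over the cells of a class. Poisson, Clopper-Pearson and conditional ratio intervals are at 95%. Sums per library and class were tested with edgeR, with the library as block, and DESeq2 as an alternative. The scripts were tested on simulated data. High-Nes cells in the cell-to-cell comparisons include those above both gates. All members are named, other pathway genes from lists where called, and for likeness the genes with the highest Pearson r of log2(CPM + 10). The members and lists were chosen with earlier results of these data known.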

Additional observations from a re-analysis of the deposited data

Results flagged for a closer look

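With 1 library per region, each library's step between 2 cell classes was set beside the others' and the differences were not tested. The 9 members were followed in high-Nes over high-Dcx, SVZ over VZ, MZ over SVZ and cycling over other high-Nes cells. They moved in opposite directions in at least 2 libraries in 15 cases of a member in a comparison. In 5 of these, 1 library lay above 1 and another below it by their 95% counting intervals. This limit was chosen after the values were seen. The share of all genes that change direction by the same rules was not counted. Spry2 in high-Nes over high-Dcx cells had a ratio of 0.158 in CTX (0.0476 to 0.412) and 1.65 in LGE (1.13 to 2.41). Etv5 in the same comparison had 0.402 in MGE (0.1997 to 0.742), 1.83 in CTX (1.03 to 3.36) and 2.19 in CGE (1.22 to 3.74). Dusp6 had 0.357 in CTX (0.146 to 0.802) and 3.26 in MGE (1.29 to 8.42). Without the cells with non-neural markers, Dusp6 in MGE was at 1.02 CPM in high-Nes and 0.521 CPM in high-Dcx cells, against 2.42 and 0.743 CPM with them. In cycling over other high-Nes cells, Fgf15 had 3.50 in LGE (1.27 to 13.4) and 0.369 in MGE (0.156 to 0.899), and Etv5 had 4.13 in CTX (1.30 to 21.0) and 0.207 in MGE (0.0519 to 0.759). These ratios rest on 3 to 81 UMIs a class.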

How the results depend on the processing

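Of 355 values of members' log2 fold changes under the alternatives, 324 kept their direction and side of the threshold, 10 lost a call, 9 gained one and 12 changed sign, none of the last being called. The 3 receptors stayed higher in high-Nes cells and lower in SVZ than VZ cells under every alternative run. For the sign changes, Spry2 between high-Nes and high-Dcx cells was at 0.12 without the library block, 0.33 at a gate of 2.0, 0.09 with no upper gene limit and 0.18 thinned (-0.44 to 0.45 leaving out a library), and Etv5 at -0.01 with no count filter and -0.22 thinned (-0.24 to 0.52). Leaving out a library moved Spry2 between SVZ and MZ to between -0.01 and 0.41. In cycling cells Spry2 was at 0.10 with no upper gene limit and Etv5 at -0.04 at a gate of 1.0.

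For high-Nes against high-Dcx, 5 members were called with no count filter (3 to 5 leaving out a library). From VZ to SVZ 8 were called with no filter and 3 thinned, and from SVZ to MZ 1 thinned. With no filter, 3326 genes were called higher and 4008 lower of 22351 for high-Nes against high-Dcx. From VZ to SVZ 2280 and 2440 of 20931 were, and thinned 1239 and 1193 of 10286. From SVZ to MZ thinned, 1713 and 1768 of 10286 were. In cycling cells 3 members were called with no filter, 0 without the block, and 3 and 0 at gates of 1.0 and 2.0. With no upper limit 2 were (1 to 2 leaving out a library). Genes called higher and lower there were 1064 and 959 of 19594 with no filter, and 291 and 52 of 9839 without the block. At gates of 1.0 and 2.0 they were 1242 and 1344 of 11312, and 292 and 144 of 6581. With no upper limit they were 909 and 861 of 10421. At own depth 2, 2 and 1 members were called in the splits on Fgfr1, Fgfr2 and Fgfr3 (0 to 1 for Fgfr2 leaving out a library). Members 2-fold apart between libraries, 6 in high-Nes and 4 in high-Dcx cells, were 1 and 0 with a pseudocount of 10 CPM. These counts have no minimum level and no share over all genes on the same basis, and in high-Nes cells they were 8 at a gate of 2.0 and 7 thinned.

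Genes called were 2432 thinned from VZ to SVZ (2606 to 3128 leaving out a library) and 3481 thinned from SVZ to MZ. In cycling cells they were 662 with DESeq2, 343 without the block, 2586 and 436 at gates of 1.0 and 2.0, and 829 thinned (873 to 1368). For the receptor step they were 121 with DESeq2 and 1205 at own depth in high-Nes cells (135 to 355), and 0, 31 and 469 with DESeq2, no filter and own depth in high-Dcx cells. For the splits on Fgfr1, Fgfr2 and Fgfr3 they were 1, 24 and 23 with DESeq2 (7 to 28, 49 to 209 and 38 to 141 leaving out a library), 273, 575 and 378 at own depth, and 17 and 57 for Fgfr1 and Fgfr3 with another thinning seed. The cause was not tested. The split on Fgf15 could not be fitted in thinned cells with the CGE library, where no cell held a UMI. Without CGE and with no upper gene limit it gave 0 genes called by edgeR, with 379 and 272 at an unadjusted p below 0.05, and at own depth 16 higher and 39 lower. Between regions no paired analysis was possible because each has 1 library, whereas the tests between classes took the library as block. Depth limits Fgf15, Spry1, Spry2, Etv4, Etv5 and Dusp6, which had at most 63 UMIs in any high-Nes class.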

Other observations

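In 285 barcodes with mostly globin UMIs, taken as red blood cells after the data were seen, the 417410 other UMIs held 5 of Fgfr1, 5 of Fgfr2 and 4 of Fgfr3, or 11.98, 11.98 and 9.58 CPM. No UMI of Fgf15, Spry1, Spry2, Etv4, Etv5 or Dusp6 was found there. Of these UMIs, 3 of Fgfr1, 4 of Fgfr2 and 4 of Fgfr3 were from CTX, 2 of Fgfr1 and 1 of Fgfr2 from MGE, and 0 from LGE and CGE. In CTX, Fgfr2 was at 17.7 CPM (4.83 to 45.4) in these barcodes and 2.01 CPM (1.07 to 3.44) in high-Dcx cells. Fgfr3 was there at 17.7 CPM (4.83 to 45.4) and 8.98 CPM (6.82 to 11.6). The part of free RNA in the high-Dcx levels was not tested.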
